A study of Mus musculus with 35 samples.

Results

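The cytosolic ribosomal protein genes encode the proteins of the ribosome outside mitochondria. They were taken as the protein-coding genes of the count table named Rpl or Rps with a number (and a closing a, x or l where there is one), together with Rpsa, Rplp0, Rplp1 and Rplp2. S6 kinase, like-named and pseudogene entries were left out. Of 41096 genes in the table, 73 matched the names and 69 remained after 4 like genes (Rps27l, Rpl3l, Rpl10l and Rpl39l) had been set aside. The 69 are 29 proteins of the small (40S) subunit, 38 of the large (60S) subunit and 2 of the P stalk (Rplp0 and Rplp2). Rps3a1 falls outside the name pattern, and Rpl10 and Rplp1 are among the ribosomal proteins not analysed here. The rule itself uses names alone and no measured value, but the class was chosen with earlier results of these data known.

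The genes were read in sorted mouse thymocytes, in 35 bulk RNA-seq libraries that form 7 groups of 5. Double negative (DN) cells lack surface CD4 and CD8, and double positive (DP) cells carry both. Wild-type mice gave the young groups (young DN, young DP) at 10 weeks of age and the aged groups (aged DN, aged DP) at 60 weeks. The 3 other groups are from mice aged 10 weeks that all carry the Cd4Cre transgene. WT DN and WT DP have the genotype Mettl3flox/wt; Cd4Cre and so carry 1 floxed Mettl3 allele, while KO DP has the genotype Mettl3flox/flox; Cd4Cre. Cd4Cre recombines floxed sequence once the Cd4 promoter is active. No DN group of the knockout was analysed here. The labels list the replicates of a group as separate samples without saying that each is another animal, so a p-value here speaks of the spread among such samples, which may be technical.

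A ribosome joins a small subunit, which reads the messenger RNA, to a large subunit, which links amino acids. The many ribosomal protein messages are made in near-matched amounts, and most begin with a terminal oligopyrimidine (TOP) tract, a C followed by a run of pyrimidines, through which mTORC1 and the RNA-binding protein LARP1 set how much of them is translated. In the thymus, DN cells divide strongly as they pass the pre-TCR checkpoint and then become small DP cells, and mice without Rpl22 have a block in the development of alpha beta T cells.

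The start sites of 8 genes on which the results turn are shown first, because the TOP tract is the feature by which these messages are usually recognised. Each window holds 30 bases of the RefSeq promoter table (GRCm38.p6), 15 before the annotated start and 15 from it, with its tract in capitals where it has one. A tract was a C within 5 bases of the start followed by at least 4 bases that are each C or T, read on the transcribed strand alone. The windows lie at chr17:24720048-24720077, plus strand (Rps2), chr9:120571502-120571531, plus strand (Rpl14), chr17:33955651-33955680, minus strand (Rps18), chr4:86857353-86857382, minus strand (Rps6), chr11:114668565-114668594, plus strand (Rpl38), chr7:45128731-45128760, minus strand (Rpl13a), chr7:24884577-24884606, plus strand (Rps19) and chr4:152324421-152324450, plus strand (Rpl22).
Rps2: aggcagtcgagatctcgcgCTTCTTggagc
Rpl14: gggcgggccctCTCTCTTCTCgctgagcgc
Rps18: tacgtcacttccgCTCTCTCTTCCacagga
Rps6: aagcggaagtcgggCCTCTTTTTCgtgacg
Rpl38: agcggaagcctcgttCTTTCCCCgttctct
Rpl13a: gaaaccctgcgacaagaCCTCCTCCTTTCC
Rps19: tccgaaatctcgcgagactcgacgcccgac
Rpl22: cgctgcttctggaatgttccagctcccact
Rps19 and Rpl22 hold no tract in any of their RefSeq windows, and the first of each is printed. Of the 69 genes, 52 had a RefSeq promoter, and 26 of these (50%) held a tract, against 21.2% of all 27025 genes in the promoter table. By a wider rule chosen after the sequences were seen (30 bases around the start and at least 7 pyrimidines after the C), 35 of the 52 (67.3%) and 22.4% of all genes held one. A match says only that these letters stand at an annotated start, and the starts used in thymocytes were not measured.

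Library totals ran from 12391908 to 18820157 counts, and none of the 69 genes was at 0 in any library. The lowest count was 7, for Rpl24. The sorted stages carried the markers of their labels, since all 7 DN markers fell from DN to DP in each of the 3 stage comparisons and 7, 6 and 7 of 7 DP markers rose (young, aged and WT mice). Markers of other cell types stood higher in DN than in DP libraries: the summed level of 8 B cell markers was 104 to 402 CPM in young DN against 24.4 to 32.2 CPM in young DP. Some libraries stood apart from their groups. KO DP 2 had a count in 12306 genes, where the remaining KO DP libraries had one in 16042 to 19656, the B cell sum reached 10429 CPM in aged DN 5 and 3997 CPM in WT DN 2, and aged DN 1, aged DP 1 and aged DP 5 stood apart as well. Mettl3, counted over the whole gene, lay between 47.8 and 60.6 CPM in the libraries labelled KO DP and between 44.5 and 54.1 CPM in WT DP. Which exons the loxP sites flank is not given in the sources used here, so a count over the whole gene does not check the deletion.

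As a class, the ribosomal protein genes held a larger share of the counts in DN than in DP cells. The 5 young DN libraries gave 3.87, 3.86, 3.80, 3.66 and 3.25% of all counts to them, and the 5 young DP libraries 2.20, 1.91, 1.58, 1.63 and 1.65%. Aged DN libraries gave 2.30, 3.50, 4.06, 3.45 and 3.26%, and aged DP libraries 1.97, 1.71, 2.11, 2.0 and 1.87%. WT DN libraries gave 4.78, 7.44, 5.31, 4.96 and 4.99%, WT DP libraries 1.83, 1.50, 2.35, 2.59 and 1.87%, and KO DP libraries 1.79, 3.38, 2.37, 2.37 and 2.15%. In young, aged and WT mice alike, every DN library lay above every DP library of its own cohort. The mean share was 3.69% ± 0.257 (SD, n = 5) in young DN and 1.79% ± 0.261 in young DP, a ratio of 2.06, and the ratio was 1.72 in aged mice (3.32% ± 0.641 against 1.93% ± 0.152) and 2.71 in WT mice (5.49% ± 1.10 against 2.03% ± 0.437). WT DN 2 stood highest and aged DN 1 lowest among the DN libraries. A share of counts is relative to all other RNA in the library, and in bulk samples fewer cells of a type and less RNA per cell cannot be told apart.

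**Figure D1:**
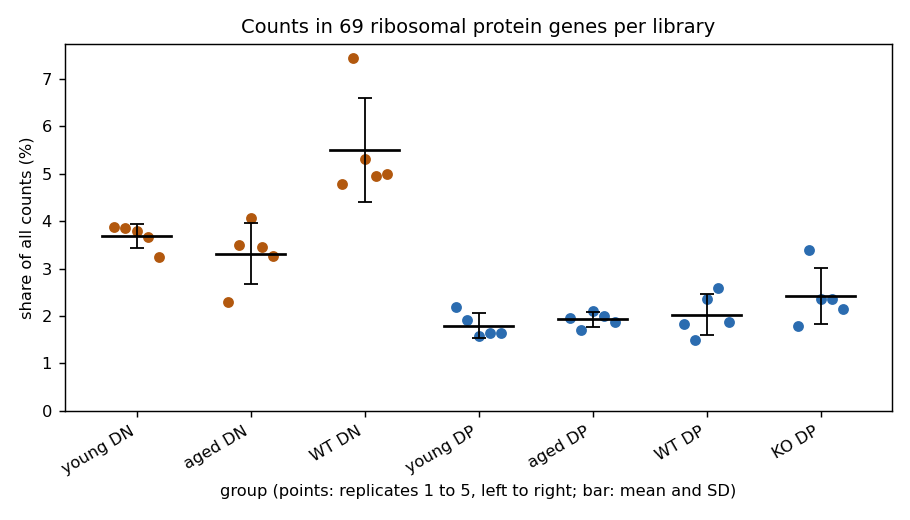
Share of all counts (%) that fell in the 69 ribosomal protein genes, by group; each point is a library (replicates 1 to 5 from left to right), and bars give the mean and SD. DN libraries (orange) run from 2.30% to 7.44% and DP libraries (blue) from 1.50% to 3.38%, with WT DN 2 as the highest point.

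The members divided these counts unevenly. The 10 most abundant held 35.3% of the class, and the genes lie on 19 chromosomes, with 14 of them on chromosome 7. Per kilobase of the gene length in the table, Rpl8, a protein near the catalytic centre of the large subunit, and Rplp0, the scaffold of the P stalk, stood highest, with a mean of 1124 and 1070 CPM per kb over the 35 libraries. Rpl24 (2.04 CPM per kb) and Rpl19 (10.0 CPM per kb), a pair of large subunit proteins that reach across to the small subunit, stood lowest. For these low genes the counts need care: the table has 1352 ribosomal protein pseudogene entries, 613 of them with a count, and for Rpl24 and Rpl19 the pseudogene entries held more counts than the gene. Small subunit counts divided by large subunit counts gave 0.903 ± 0.0135 in young DN and 0.885 ± 0.0377 in young DP. Aged libraries had 0.908 ± 0.0062 (DN) and 0.887 ± 0.0172 (DP), and WT libraries 0.893 ± 0.0077 (DN) and 0.852 ± 0.0241 (DP). For KO DP the mean ratio was 0.852 ± 0.0101. These means moved far less between stages than the share of the class. Even so, all WT DP ratios (0.814 to 0.877) lay below all WT DN ratios (0.885 to 0.906), as did those of the knockout (0.843 to 0.865). Young and aged stages overlapped, and the ratio was not tested.

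From DN to DP the class fell almost whole. In young mice 66 of 69 genes were lower in DP and 0 higher by edgeR's quasi-likelihood test (adjusted p under 0.05), where 36.5% of the 13772 genes tested were called lower and 33.9% higher. In aged mice 57 of 69 were lower and 0 higher, against 24.6% and 18.6% of 13596 genes. In WT mice 67 were lower and 0 higher, against 33.7% and 30.2% of 13490 genes. The median log2 change over the 69 was -0.94 in young, -0.76 in aged and -1.37 in WT mice, while the median over all genes tested was -0.01, -0.07 and -0.02. The DP values of 59, 48 and 66 of the genes lay wholly below the DN values, as did those of 30.7%, 17.7% and 26.1% of all genes tested. A set of 56 of the 69 was called lower in all 3 comparisons, which share no library, against 19.9% of the 12976 genes tested in all 3. DN libraries also carried more RNA of other cell types. Called lower in DP in young, aged and WT mice were 8, 5 and 8 of 8 B cell markers, 4 of 4, 3 of 3 and 4 of 4 granulocyte markers and 4 of 4 gamma delta T cell markers each time. The same held for 6 of 7, 6 of 7 and 5 of 6 dendritic, 4 of 5, 2 of 5 and 2 of 2 macrophage, 4 of 4, 5 of 5 and 5 of 5 NK and innate, and 2 of 3 stromal markers in each. The granulocyte sum, for example, was 187 to 669 CPM in young DN and 0.426 to 2.52 CPM in young DP, and the part of these cells in the fall was not tested. Without the libraries that stand apart, the counts of members called lower were 63 in aged and 67 in WT mice. Of 5 markers of cycling cells, 1 was called higher and 2 lower in young DP. In aged mice 0 were called, and in WT mice 0 were higher and 2 lower. The list medians were 0.08, 0.87 and 0.15, and the part of cell division in the fall was not tested.

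**Figure D2:**
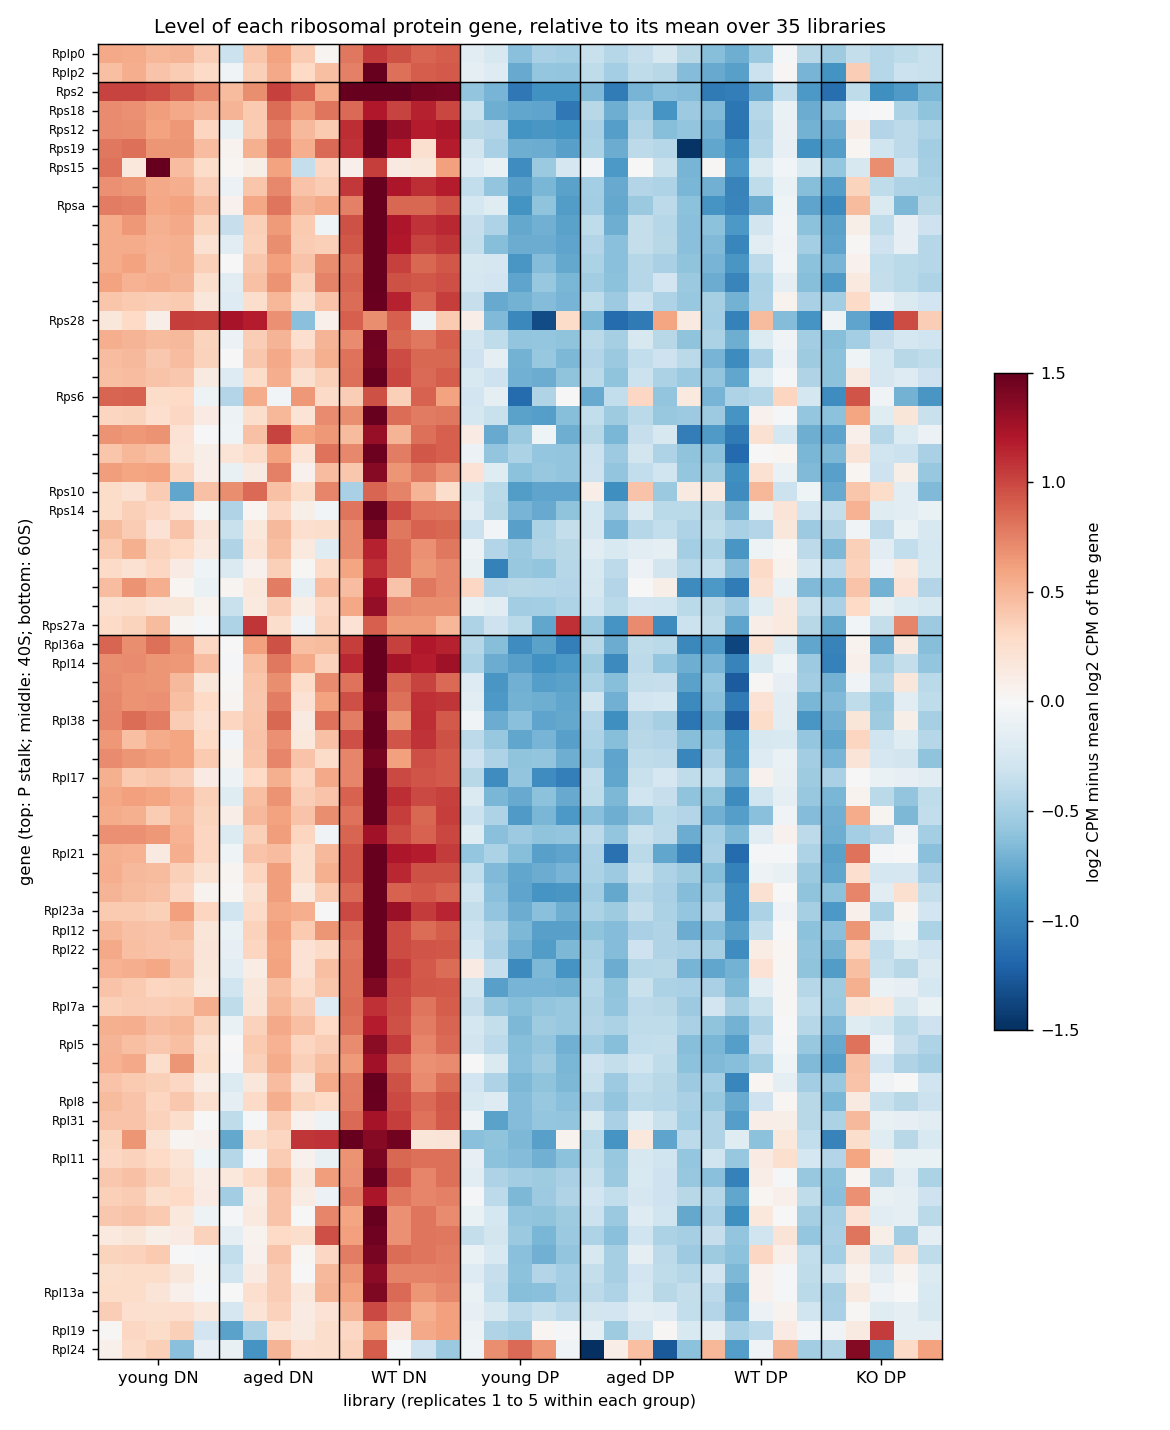
Level of each of the 69 genes in each of the 35 libraries, as log2 CPM minus the mean of that gene over all libraries (red high, blue low, as the colour scale gives); columns are libraries by group, and rows are P stalk, 40S and 60S genes, each block ordered by the young DP against young DN change, with genes named in the text labelled. DN columns are mostly red and DP columns mostly blue, and WT DN 2 is the deepest red column. Aged DN 1 and KO DP 2 depart from their stages. The class summed to 24561 CPM in aged DN 1 and to 31299 CPM in KO DP 2. Rpl24 and Rps27a are among the rows that break the pattern. Rps28 was lower on average in every DP group than in the DN groups, but was not called in aged mice.

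Among the small subunit genes, 28 of 29 fell in young, 22 in aged and 28 in WT mice. Rps2, a protein at the messenger RNA entry channel, had the largest fall of all 69 genes in each of the 3 comparisons. In the coordinates of the count table, whose identifiers are of the C57BL/6NJ strain annotation, the gene lies at chr17:24784379-24788114 on the plus strand. Its level was 864, 866, 844, 779.6 and 706 CPM in the young DN libraries and 284, 264, 204, 228 and 227 CPM in young DP. The aged DN libraries held 594, 691, 870.1, 786 and 631 CPM and the aged DP libraries 269.9, 206, 263, 277 and 272 CPM. WT DN libraries gave 1203, 1388, 1303, 1159 and 1147 CPM, WT DP libraries 205, 209, 252, 329.8 and 236 CPM and KO DP libraries 195, 328, 226, 238 and 265 CPM. No DP library of any group reached the lowest DN library. The log2 fold change was -1.74 ± 0.09 (SE) in young mice, -1.47 ± 0.13 in aged and -2.34 ± 0.14 in WT mice, with adjusted p = 3.1e-10, 3.22e-05 and 1.24e-08. In fold terms Rps2 was 3.35, 2.77 and 5.05 times lower in DP.

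Rps19, a small subunit protein needed for maturation of the 40S particle and mutated in human Diamond-Blackfan anaemia, followed the same course. Its 5 young DN libraries lay at 508, 525, 468, 466 and 407 CPM and its young DP libraries at 244, 211, 178, 176 and 167 CPM. Aged DN libraries lay at 306, 427, 519, 429 and 532 CPM and aged DP libraries at 212, 175, 224, 219 and 106 CPM. The groups did not overlap in either cohort, and aged DP 5 was the lowest library. Its log2 fold changes were -1.27, -1.24 and -1.81 in young, aged and WT mice (adjusted p = 3.07e-08, 0.00144 and 3.41e-05). Rps18, in the head of the small subunit, had log2 changes of -1.34, -1.25 and -1.62, and Rps12, also of the head, of -1.28, -1.0 and -1.95, each called in all 3.

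Rps6, the protein that S6 kinases phosphorylate downstream of mTORC1, varied more between replicates than most. It lay at 619, 622, 409, 416 and 320.4 CPM in young DN and 276, 305, 152, 246 and 337 CPM in young DP, with overlap between young DN 5 and young DP 5. The log2 fold change was -0.85 ± 0.20 in young (adjusted p = 0.00149) and -0.93 ± 0.18 in WT mice (adjusted p = 0.000624). In aged mice it was -0.44 ± 0.26, which was not called (adjusted p = 0.197). Rps14, whose human gene lies in the deleted interval of a myelodysplastic syndrome, had log2 fold changes of -0.75 in young mice and -1.26 in WT mice, both called, and -0.37 in aged mice, not called (adjusted p = 0.05). Without aged DN 1 the aged value was -0.46 (adjusted p = 0.00522). Rpsa, also studied as a laminin receptor, had called changes of -1.16, -1.09 and -1.75 in young, aged and WT mice.

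Rps27a, which is made as a fusion to ubiquitin, was 1 of the 3 genes not called in young mice. Its values were 30.5, 31.4, 34.8, 25.6 and 24.6 CPM in young DN and 18.1, 20.2, 18.9, 14.6 and 53.3 CPM in young DP. Young DP 5 was above all 5 young DN libraries, while the other young DP libraries were below them. With all libraries the log2 fold change was -0.23 ± 0.28 (adjusted p = 0.479), and without young DP 5 it was -0.70 (adjusted p = 0.000286). In aged mice the value -0.58 (adjusted p = 0.23) became -0.98 (adjusted p = 0.034) without aged DP 3. WT mice had -0.83 with a call (adjusted p = 0.00143). Rps10, a small subunit protein of the mRNA entry side, was called in young and aged mice (-0.75 and -0.69) and not in WT mice (-0.52, adjusted p = 0.106). Its aged call was lost without any of aged DN 1, 2, 3 or 5 or aged DP 1, 2 or 4, with an adjusted p of up to 0.1, and in WT mice it was gained without WT DN 1 (-0.69, adjusted p = 0.0236) or WT DP 3 (-0.67, adjusted p = 0.0477).

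Of the 38 large subunit genes, 36 fell in young, 33 in aged and 37 in WT mice. Rpl14 was among the 10 largest falls in all 3, as were Rpl36a, Rps19 and Rps2. Rpl14, a protein of the solvent side, lay at 636, 642, 619, 614 and 543 CPM in young DN and 282, 234, 223, 209 and 215 CPM in young DP. Its aged DN libraries held 385, 536, 681, 584 and 500.1 CPM and its aged DP libraries 270.0, 203, 298, 263 and 237 CPM. The stages were fully apart in both cohorts, and the log2 fold change was -1.39 ± 0.08 in young (adjusted p = 1.26e-09), -1.08 ± 0.16 in aged (adjusted p = 0.00054) and -1.81 ± 0.18 in WT mice (adjusted p = 1.66e-06). Rpl36a, which sits near the exit site for transfer RNA and is 1 of 3 X-linked members, changed by -1.43, -1.09 and -1.73, called in all 3. Rpl38, whose loss in the Tail-short mouse disturbs the body plan, changed by -1.17, -1.19 and -1.50, also called in all 3.

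Rpl5 and Rpl11 bind 5S ribosomal RNA and, when ribosome assembly fails, the p53 inhibitor MDM2. Rpl5 lay at 701, 677, 650.2, 674 and 582 CPM in young DN and 409, 377, 317, 327 and 299 CPM in young DP, with log2 fold changes of -0.92, -0.83 and -1.43 in young, aged and WT mice, all called. Rpl11 changed less, by -0.75, -0.41 and -1.08. Its call in aged mice (adjusted p = 0.0405) was lost without any of aged DN 2, 3 or 4 or aged DP 1, 2, 4 or 5, where the adjusted p reached 0.105 and the value lay between -0.43 and -0.30. Rpl13a, known in human cells as a subunit of an interferon-induced inhibitor of translation, had smaller changes than most members, at -0.60, -0.64 and -1.16, all called. Rpl7a, in the body of the large subunit, had among the smallest adjusted p of the WT stage comparison (5.01e-07), with values of 363, 434, 402, 354 and 380.1 CPM in WT DN and 166, 144, 161, 207 and 157 CPM in WT DP.

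The genes of the large subunit with the fewest counts did not follow. Rpl24 lay at 1.80, 2.08, 2.18, 1.10 and 1.55 CPM in young DN and 1.64, 2.74, 3.06, 2.67 and 1.64 CPM in young DP, and the groups overlapped. Its log2 fold change of 0.43 ± 0.28 (adjusted p = 0.186) was the sole positive value among the 69 in young mice, and it was -0.46 in aged and -0.17 in WT mice, none of them called. Rpl19 had -0.33 in young mice (adjusted p = 0.0833), -0.14 in aged mice (adjusted p = 0.656) and a called -0.64 in WT mice (adjusted p = 0.00566). Without young DN 5, the young value was -0.43 (adjusted p = 0.0265).

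Both P stalk genes, whose proteins recruit elongation factors, fell in each comparison. Rplp0 lay at 2454, 2427, 2328, 2347 and 2127 CPM in young DN and 1478, 1400.0, 1067, 1179.9 and 1161 CPM in young DP, fully apart, with a log2 fold change of -0.89 ± 0.09 (adjusted p = 3.17e-07). In aged mice it was -0.60 ± 0.16 (adjusted p = 0.0113), where aged DN 1, at 1322 CPM, lay within the range of the aged DP libraries (1225 to 1397 CPM). The WT value was -1.37 ± 0.13. Rplp2 had -0.85, -0.81 and -1.53, all called.

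The members that fell most in one cohort also tended to fall most in the others. Across the 69 genes, the log2 changes of young and aged mice had a Pearson r of 0.71 (Spearman 0.74), those of young and WT mice 0.81 (0.79), and those of aged and WT mice 0.74 (0.78). Without Rpl24 the 3 values of r were 0.75, 0.76 and 0.75. These describe genes, which are not independent replicates, and the comparisons share no library, while every gene brings its own length, depth and near copies to each.

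**Figure D3:**
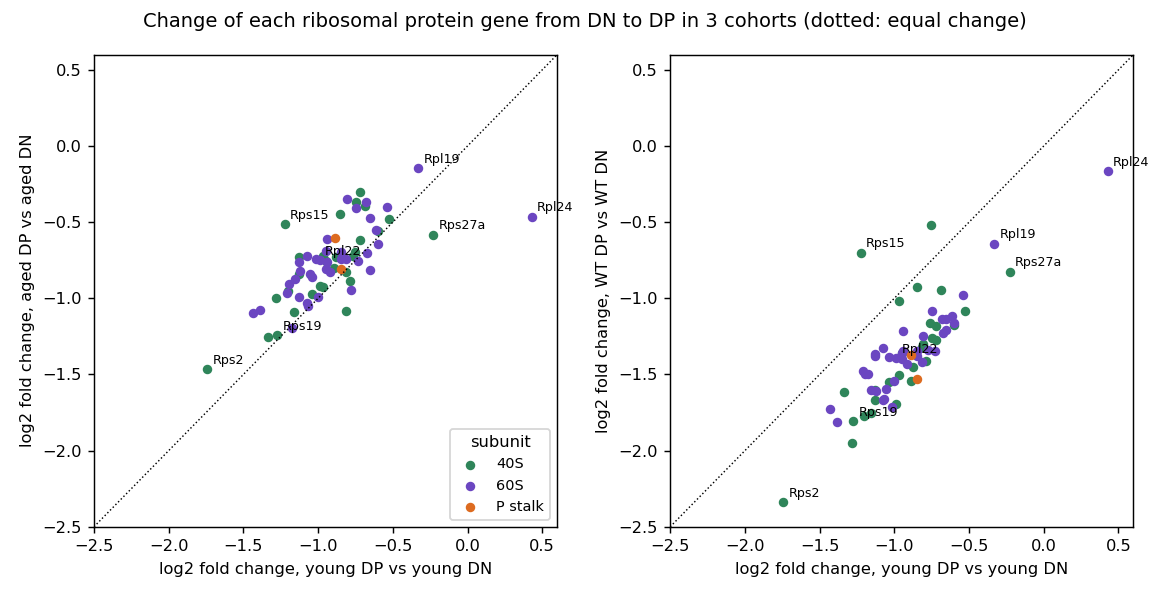
Log2 fold change from DN to DP for each gene, young mice on the x axis against aged mice (left) and WT mice (right) on the y axis; points are genes coloured by subunit and the dotted line marks equal change. Rps2 lies at the lower left end in both panels, Rpl24 at the right, and in the right panel nearly all points lie below the line.

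Rpl22 was followed further because of its place in thymocyte development. The ratio of its paralog Rpl22l1 to Rpl22 was added after the values had been seen. Rpl22 lies at chr4:162051097-162059426, plus strand, in the coordinates of the table. Rpl22 lay at 313, 287, 283, 281 and 240.1 CPM in young DN and 176, 150.1, 128, 118 and 132 CPM in young DP. In aged mice it lay at 194, 264, 317, 246 and 257 CPM in DN and 149, 135, 170.1, 155 and 151 CPM in DP. WT DN gave 367, 604, 417, 407 and 404 CPM, WT DP 149, 111, 227, 215 and 139.6 CPM and KO DP 129, 263, 164, 183 and 171 CPM. The stages did not overlap within any cohort. Log2 fold changes were -0.99 ± 0.10, -0.75 ± 0.13 and -1.39 ± 0.20 in young, aged and WT mice (adjusted p = 4.46e-07, 0.00124 and 4.21e-05), close to the median of the class.

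Rpl22l1, which the naming rule leaves out, fell further. It lay at 83.1, 77.4, 74.6, 79.0 and 68.3 CPM in young DN and 28.9, 23.4, 24.9, 24.3 and 24.5 CPM in young DP, with log2 fold changes of -1.59 ± 0.08, -1.23 ± 0.11 and -2.01 ± 0.18 in the 3 cohorts. Rpl22l1 counts were 26.4% to 28.5% of Rpl22 counts in young DN and 15.6% to 20.6% in young DP. In aged mice they were 23.8% to 30.9% against 17.3% to 20.7%, and in WT mice 26.2% to 33.7% against 14.9% to 21.8%. In each cohort the ratio was lower in all 5 DP libraries than in any DN library, with a log2 difference, DP minus DN, of -0.60, -0.48 and -0.59. The exact 2-sided permutation p was 0.00794 in each, the smallest that 252 assignments allow, and 0.00794 after adjustment over the 3 tests. The ratio of this pair was chosen after its values had been seen, so these p-values only restate the separation and are no independent support. KO DP, at 16.5% to 21.1%, lay within the range of WT DP.

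**Figure D4:**
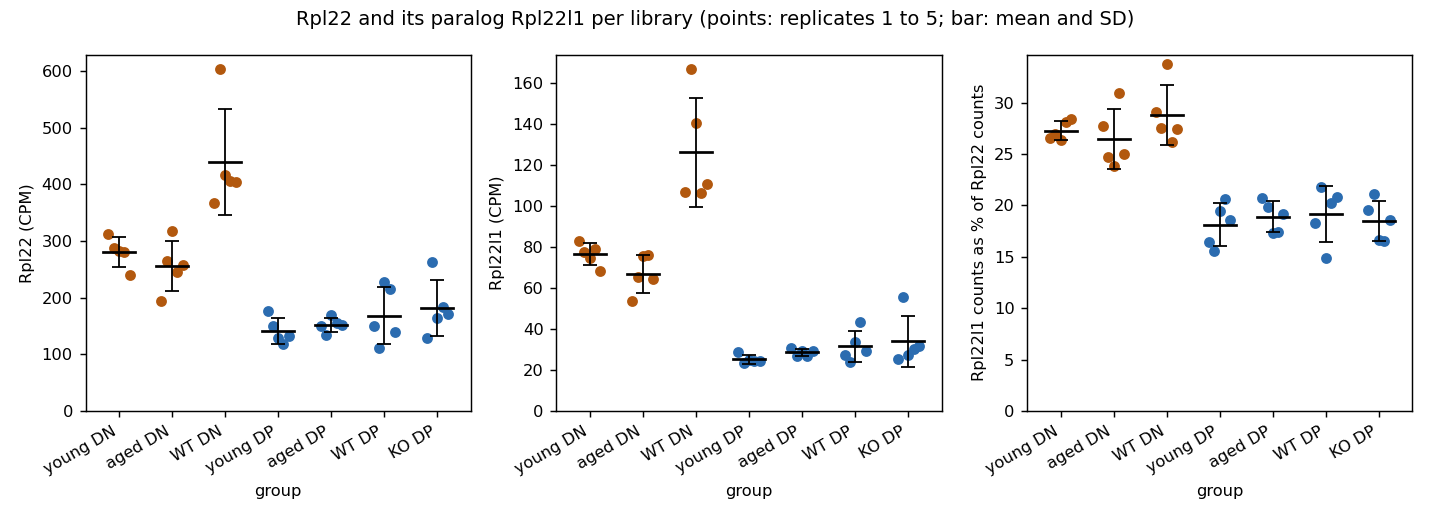
Rpl22 (left, CPM), Rpl22l1 (middle, CPM) and Rpl22l1 counts as a percentage of Rpl22 counts (right), by group; points are libraries (replicates 1 to 5 from left to right), and bars give the mean and SD. The right panel shows DN libraries between 23.8% and 33.7% and DP libraries between 14.9% and 21.8%.

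Among DN cells, the WT mice (1 floxed allele and Cd4Cre) had higher ribosomal protein levels than the young wild-type mice of the same age. There 53 of 69 genes were called higher and 0 lower, against 14.2% and 10.9% of 13702 genes, and the same 53 genes lay wholly above young DN, as did 13.7% of all genes tested. The median log2 change was 0.60, and 0.47 without WT DN 2, where 55 genes were called. By role, 19 of 29 small subunit, 32 of 38 large subunit and both P stalk genes rose. Rpl21, a large subunit protein, had the largest rise. It lay at 489, 485, 373, 496 and 424 CPM in young DN and 650.4, 1199, 785, 768 and 699 CPM in WT DN, a log2 fold change of 0.85 ± 0.16 (adjusted p = 0.00503). Rpl23a, near the exit of the nascent chain tunnel, rose by 0.83 ± 0.13 (adjusted p = 0.00301), Rps14 by 0.77, and Rps2 by 0.60 ± 0.09 (adjusted p = 0.00257). Rps2 shared the smallest adjusted p with Rpl7a, which rose by 0.50 ± 0.08.

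Some members did not join that rise. Rps6 had a log2 change of 0.14 (adjusted p = 0.598) and Rps15 of -0.40 (adjusted p = 0.37), neither of them called. Rpsa was at 783, 1566, 842, 842 and 887 CPM in WT DN, where replicate 2 is far above the others, and 792, 783, 689.9, 703 and 640.1 CPM in young DN. Its value of 0.44 was not called (adjusted p = 0.093), yet the smaller 0.21 without WT DN 2 was (adjusted p = 0.026). Rps19 (0.50, adjusted p = 0.119) was called without WT DN 4 (0.67, adjusted p = 0.0153). Markers of other cells moved in this comparison too: 3 of 5 NK and innate markers (sum 106 to 129 CPM in WT DN against 41.9 to 73.0 CPM in young DN) and 1 of 8 B cell markers were called higher, and 2 of 7 DN markers and 1 each of the granulocyte, gamma delta T, stromal and DP markers were called lower. Their part in the rise was not tested. The WT DN libraries had counts in 16170 to 17956 genes against 19054 to 19677 in young DN. The labels name no batch, so breeding, genotype and any difference in handling between these cohorts cannot be told apart.

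Among DP cells, no member was called between the same cohorts. WT DP against young DP gave 0 of 69 genes in either direction by edgeR (0.229% of all genes were called higher and 0.359% lower), 6 at an unadjusted p under 0.05 and 0 by DESeq2. The median log2 change was 0.12, and it ran from 0.04 (without WT DP 4) to 0.22 (without WT DP 2) when replicates were left out in turn. Rpl17, at the tunnel exit, had the smallest p, with 411, 286, 362, 286 and 269 CPM in young DP and 422, 323, 572, 507 and 377 CPM in WT DP, a log2 change of 0.44 ± 0.15 (adjusted p = 0.166). The difference between the 2 cohort effects was tested as an interaction, and 0 of 69 members were called (0.553% of 14655 genes were called higher and 0.13% lower). Its median over the members was -0.50, against -0.003 over all genes tested, with 40 members at an unadjusted p under 0.05. The share of all genes at an unadjusted p under 0.05 is not given for any comparison, so such counts have no background here. DESeq2 called 2, Rps2 and Rpl23a, both lower, and edgeR called 14 lower without WT DP 4. The calls over all genes in those settings were also more numerous and are given below with the processing. Rpl23a had the smallest p, with an interaction of -0.70 ± 0.19 (adjusted p = 0.0989), and Rps2 gave -0.60 ± 0.16.

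Age left no call on any member. In aged DN against young DN, 0 of 69 genes were higher or lower by edgeR, where 0.159% of 13873 genes were called higher and 0.108% lower. None of the 69 was at an unadjusted p under 0.05 and DESeq2 called 0. The median log2 change was -0.08, with 53 genes negative and 16 positive, and it ran from -0.14 (without aged DN 3) to 0.00 (without aged DN 1) when replicates were left out in turn. Rps10 had the smallest p, with 316, 306, 342, 153 and 357 CPM in young DN and 424, 472, 356, 319 and 437 CPM in aged DN. The groups overlapped, and its log2 fold change was 0.48 ± 0.22 (adjusted p = 0.229). The aged DN libraries themselves were spread widely, since aged DN 1 gave 2.30% of its counts to the class and aged DN 3 gave 4.06%. The B cell marker sum was 433 to 10429 CPM in aged DN against 104 to 402 CPM in young DN. For dendritic markers it was 729 to 17005 CPM against 168 to 732 CPM. The median log2 change was 3.41 for B cell, 3.10 for dendritic and -3.28 for granulocyte markers, with 0 called in each list. Their part in these values was not tested.

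In aged DP against young DP, edgeR called 0 of 69 in either direction, against 0.62% of 13059 genes higher and 0.322% lower. At an unadjusted p under 0.05 there were 4 members, and DESeq2 called 0. The median was 0.08, and 0.03 to 0.17 with replicates left out in turn (without young DP 3 and young DP 1). Rpl17 again had the smallest p, with 422, 319, 434, 458 and 419 CPM in aged DP and a log2 change of 0.37 ± 0.12 (adjusted p = 0.196). The B cell marker sum was 94.0 to 848 CPM in aged DP and 24.4 to 32.2 CPM in young DP. Called higher in aged DP were 4 of 8 B cell, 5 of 6 dendritic, 1 of 3 macrophage and 1 of 4 gamma delta T cell markers, and their part in these values was not tested. The age by stage interaction gave 0 members by edgeR (0.0% of 14722 genes higher, 0.00679% lower), 3 at an unadjusted p under 0.05 and 0 by DESeq2. Its median was 0.15, from 0.07 without aged DN 1 to 0.24 without aged DN 3, and Rpl31, another tunnel exit protein, had the smallest p (0.46 ± 0.19, adjusted p = 0.303).

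No member was called between the libraries labelled KO DP and WT DP. EdgeR called 0 of 69 higher or lower (1.48% of 13233 genes were called higher and 0.113% lower), with 0 at an unadjusted p under 0.05 and 0 by DESeq2. The log2 change was positive for 66 and negative for 3 genes, with a median of 0.20. Without KO DP 2, the library with the fewest counts and genes, the median was 0.05, and it reached 0.30 without KO DP 1. Rpl12, at the base of the stalk, had the smallest p. It lay at 204, 183, 249, 319 and 209 CPM in WT DP and 207, 506, 286, 306 and 231 CPM in KO DP, where replicate 2 is the highest of the 10, and its log2 change was 0.43 ± 0.23 (adjusted p = 0.406). Rps2 was at 0.05 ± 0.16, Rpl22 at 0.14 ± 0.22 and Rplp0 at 0.07 ± 0.13. The summed B cell markers were 190 to 366 CPM in KO DP against 31.9 to 56.2 CPM in WT DP, with 8 of 8 markers called higher. Also called higher in KO DP were 4 of 5 dendritic, 3 of 4 macrophage, 3 of 3 granulocyte, 2 of 3 NK and innate and 1 of 3 gamma delta T cell markers, as well as 2 of 7 markers of DN cells, in which the class is high (DN marker sum 191 to 564 CPM in KO DP against 126 to 185 CPM in WT DP). The DP marker sum was 8754 to 12669 CPM in KO DP against 13175 to 15554 CPM in WT DP, and 0 of 7 DP markers were called. The part of these marker differences in the values was not tested.

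The wider apparatus of protein synthesis was read from lists chosen by function. Over all genes tested, 36.5%, 24.6% and 33.7% were called lower from DN to DP in young, aged and WT mice. Called higher were 33.9%, 18.6% and 30.2%. In WT DN against young DN, 14.2% were called higher and 10.9% lower. Of 22 translation factors and other genes known for TOP messages, 21 fell from DN to DP in young, 17 in aged and 22 in WT mice, and 0 rose. Npm1, a nucleolar histone chaperone, had log2 changes of -1.86, -1.47 and -2.28, and Eef1g, a subunit of the elongation factor that loads transfer RNA, of -1.70, -1.47 and -2.05. The median over the list was -0.68, -0.61 and -1.08. In WT DN against young DN, 14 of the 22 rose and 0 fell, among them Gas5 (0.54), a host of small nucleolar RNAs, and Eef1b2 (0.70).

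Ribosome assembly and RNA polymerase I genes also fell. Of 30, 28 were lower in young DP, 27 in aged DP and 29 in WT DP, with medians of -1.49, -1.19 and -1.55. Polr1b, the second largest subunit of RNA polymerase I, had -2.78 ± 0.07, -2.54 ± 0.19 and -2.77 ± 0.11. Nhp2, a core protein of the pseudouridine-forming particles, had -2.07, -1.68 and -2.45. The exception was Wdr12, a large subunit assembly factor, which rose by 0.92, 1.18 and 0.62, and was called in all 3. In WT DN against young DN, 16 rose and 2, Heatr1 (-0.38) and Polr1a (-0.35), fell.

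Regulators of TOP translation were mixed. Of 19 genes, 9 fell and 3 rose in young mice, 7 and 3 in aged mice, and 9 and 3 in WT mice. Over all genes, 36.5%, 24.6% and 33.7% fell and 33.9%, 18.6% and 30.2% rose. With so few genes, the list cannot be told apart from these shares without a test, and none was run. Myc, a transcription factor that drives ribosome production, had the largest change, at -3.51 ± 0.08, -3.09 ± 0.33 and -3.55 ± 0.16 (adjusted p = 1.69e-13, 8.73e-05 and 1.22e-09). Larp1, the TOP-binding repressor, fell too, with -1.41, -1.18 and -1.28. The S6 kinase genes Rps6kb2 (0.89, 0.89 and 0.95) and Rps6kb1 (0.24, 0.56 and 0.38) rose in all 3. In WT DN against young DN, 4 of the 19 rose, Eif4e (0.38) and Cnbp (0.36) among them, and 5 fell, with Tsc2 (-0.39) and Rptor (-0.41) having the smallest adjusted p.

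The paralogs outside the naming rule moved with the members, though not all were called. Of 5 that could be tested, 4 fell in young, 2 in aged and 5 in WT mice. Rpl7l1 had -0.55, -0.50 and -0.81, all called, and Rps27l, which p53 induces in human cells, had -1.25, -0.52 (not called) and -1.50. Rpl36al (-0.76, -0.48 and -1.22) was not called in aged mice, and Rps27rt (-0.42, -0.46 and -0.86) was called in WT mice only. In WT DN against young DN, 4 of these 5 rose.

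Set against the start sites, the stage changes looked alike with and without a tract, as a description with no test. The 26 members with a tract had a median log2 change of -0.85 in young mice, from -1.74 to -0.33, and the 26 without had -0.96, from -1.43 to 0.43. Rps2, Rpl14, Rps18 and Rpl38 carry a tract in the windows shown above and fell by more than 1 log2 unit, as did Rps19, which carries none. Rpl13a carries a long tract and had -0.60.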

How the data were processed

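Bulk RNA-seq was made from sorted thymocytes in 35 libraries. The deposited values are whole-number read counts per gene and library, not normalized. Per the submitters' processing notes, the tools included Trim Galore 0.4, HTSeq 2.0.3, STAR 2.5.1, bcl2fastq, DESeq2 and Subread, with mm10 and GRCm39 as builds. Which step each served, and whether counting used strand, is not given in the sources used here, so near-copies, overlapping and antisense genes are uncertain.

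Counts were tested with edgeR 4.0.16 in R 4.3.3 (TMM scaling, filterByExpr with a minimum count of 10 and total of 15, quasi-likelihood test, 2-sided, Benjamini-Hochberg over all genes tested, called at an adjusted p under 0.05) on the libraries of the groups compared. All 69 members passed the filter in every comparison. Levels are CPM after TMM, with SD over n = 5. DESeq2 1.42.0, other scalings, no filter, all 35 libraries, a replicate block and leave-out fits were alternatives. The scripts were tested on simulated data. The ratio of Rpl22l1 to Rpl22 was compared between stages with an exact permutation test (SciPy 1.17.1).

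Members and gene lists were chosen with earlier results of these data known. Named genes are Rpl22, Rpl5, Rpl11, Rpl38, Rpl13a, Rps6, Rps14, Rps19, Rps27a, Rpsa, Rplp0 and Rplp2, with Rpl10 and Rplp1 having no member row. Added per comparison are the 3 largest rises and falls among called members without overlap, the 2 smallest adjusted p (or the smallest p where none was called), the 2 highest and lowest levels per length, all testable paralogs, and up to 2 called genes each way per list. Rps15, Rps28 and the Rpl22l1 to Rpl22 ratio were chosen after their values were seen. Some ribosomal protein genes are not reported here. Comparisons with the young groups share the young libraries, and KO DP and the WT stage comparison share WT DP.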

Additional observations from a re-analysis of the deposited data

Results flagged for a closer look

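In 203 groups of 5 values (the class share and the named genes), 32 held a library whose gap to its nearest neighbour was large for the range of the group, by Dixon's rule at 95%; chance flags about 1 in 20 groups, and the genes of 1 library are not independent. WT DN 2 accounts for 14 of them, each on the high side. The class took 7.44% of its counts, against 5.31% in the next WT DN library. Its levels were 604 CPM for Rpl22, 1525 CPM for Rpl11, 1515 CPM for Rpl13a, 2309 CPM for Rps14, 1566 CPM for Rpsa, 930.1 CPM for Rplp2 and 363 CPM for Rpl36a. For Rpl14, Rps12, Rpl17, Rpl21, Rpl12 and Rpl8 they were 1322, 1413, 1562, 1199, 986 and 2493 CPM. The same library had a B cell marker sum of 3997 CPM, against at most 511 CPM in the other WT DN libraries, and its part in these values was not tested.

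Young DP 1 was high for Rpl11 (528 CPM), Rpl38 (65.8 CPM), Rpl7a (160.4 CPM), Rpl31 (421 CPM) and Rpl22l1 (28.9 CPM). Young DN 5 was low for Rpl14 (543 CPM) and Rpl12 (363 CPM) and high for Rpl7a (297 CPM). Young DN 4 was low for Rps10 (153 CPM) and high for Rpl23a (412 CPM). KO DP 2 was high for Rps14 (1130.5 CPM) and Rpl22l1 (55.6 CPM), and KO DP 3 for Rpl19 (17.7 CPM). Aged DP 2 was low for Rps2 (206 CPM) and Rpl17 (319 CPM). Rps27a stood high in young DP 5 (53.3 CPM) and aged DP 3 (40.8 CPM), and Rpsa in WT DP 4 (441 CPM).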

How the results depend on the processing

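The direction of the members' calls held in every setting run, and 0 results reversed. Leaving out each replicate in turn, between 66 and 67 members were called lower in the young stage comparison, 53 to 61 in the aged and 67 to 68 in the WT one, and 50 to 55 were higher in WT DN against young DN. The cohort by stage interaction moved most: 0 to 14 members were called when replicates were left out, with 14 without WT DP replicate 4, and DESeq2 called 2. Other settings gave 54 to 63 members in the aged stage comparison and 48 to 55 in WT DN against young DN, and library totals without TMM moved the young median from -0.94 to -1.06. In aged mice, without the libraries that stand apart, Rps14 (-0.51), Rpl31 (-0.46) and Rps6 (-0.57) were called, the first 2 also with DESeq2's size factors (-0.37 and -0.35). There the Rpl22l1 ratio was -0.54, with an exact permutation p of 0.1, the smallest that design allows. Rpl5 and Rpl36a lost their calls in WT DN against young DN with all 35 libraries in the fit (adjusted p = 0.0502 and 0.106). The cause of these moves was not tested. Same-numbered samples did not all deviate together (correlations of their deviations from 0.0988 to 0.407 in the young, from 0.0903 to 0.389 in the aged and from -0.329 to 0.486 in the WT stage pairs, with 4, 4 and 2 of 5 samples correlating best with their own number), so the replicate block is given here alone: it called 66, 57 and 67 members in the young, aged and WT stage comparisons and 53 in WT DN against young DN, and 0 elsewhere. The background counts over all genes moved more than the members did. Aged DN against young DN had 37 calls, against 819 by DESeq2, 2160 with all 35 libraries, 738 without the libraries that stand apart, 1 with the block and 10 to 185 with replicates left out (185 without aged DN 1). Aged DP against young DP had 123, against 353 unfiltered, 317 by DESeq2, 30 with all 35 libraries and 58 to 136 with replicates left out. WT DN against young DN had 3439, against 1752 with all 35 libraries and 2102 to 4392 with replicates left out. WT DP against young DP had 77, against 447 by DESeq2, 149 unfiltered, 4 with all 35 libraries, 8 with the block and 23 to 98 with replicates left out. KO DP against WT DP had 211, against 536 by DESeq2, 61 with the block and 101 to 534 with replicates left out (534 without KO DP 2). Age by stage had 1, against 85 by DESeq2, 21 with all 35 libraries, 72 without the libraries that stand apart and 10 with the block. Cohort by stage had 100, against 331 by DESeq2, 25 with all 35 libraries, 15 with the block and 47 to 402 with replicates left out (402 without WT DP 4). Depth limits Rpl24 most, with as few as 7 counts in a library.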

Other observations

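The ribosomal proteins of mitochondria, which translate the messages of the mitochondrial genome, fell more often than they rose from DN to DP. Of 74 tested, 57 fell and 3 rose in young mice and 67 fell and 1 rose in WT mice, where 36.5% and 33.7% of all genes were called lower. In aged mice 21 fell and 2 rose, a share near the 24.6% of all genes called lower there. The 3 comparisons gave the list, in the order young, aged and WT, median log2 changes of -0.52, -0.24 and -0.81. Mrpl12, known to bind mitochondrial RNA polymerase, changed by -1.50 ± 0.12 (adjusted p = 2.48e-08), -0.97 ± 0.28 and -1.84 ± 0.15, and Mrpl17 by -1.39, -1.14 and -1.81. Mrpl24 had small rises of 0.31 and 0.32 in young and aged mice. In WT DN against young DN, 55 of the 74 rose and 0 fell, with a median of 0.43, where 14.2% of all genes were called higher. EdgeR called 0 of them with age in either stage or between KO DP and WT DP.

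Targets of p53, a list kept because p53 is known to respond to ribosome assembly defects, moved in both directions from DN to DP. Of 11 tested, 6 rose and 5 fell in young, 3 and 3 in aged, and 5 and 4 in WT mice. Over all genes, 33.9%, 18.6% and 30.2% rose and 36.5%, 24.6% and 33.7% fell, and the list was not tested against these shares. Cdkn1a, a cell cycle inhibitor, changed by -4.06 ± 0.20, -4.16 ± 0.75 and -4.04 ± 0.26. Trp53inp1, a p53 cofactor, changed the other way, by 2.26 ± 0.08, 2.11 ± 0.13 and 2.29 ± 0.15. Bbc3, a pro-apoptotic gene, rose by 2.18, 1.31 and 1.43, while Aen had -0.75, -0.87 and -0.87. In WT DN against young DN, Bax (0.68) and Bbc3 (0.61) rose. By edgeR 0 of the 11 were called with age in either stage or between KO DP and WT DP.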
